A study of Mus musculus with 14 samples.

Results

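Lymphocytes in MYC-driven liver tumours were followed through 9 marker genes: Cd3e, Cd3g, Cd4 and Cd8a of T cells, Nkg7, Gzma and Gzmb of natural killer (NK) cells and cytotoxic T cells, and Cd79a and Ms4a1 of B cells. The genes were taken by symbol, whatever their values, from 2 deposited tables. All 9 were among the 16821 genes of the first table and 8 were among the 16095 genes of the second, where Ms4a1 was not analysed here. The data are RNA sequencing of total RNA from murine hepatocellular carcinomas (HCC), and every tumour, controls included, was driven by MYC. In the first table, 3 tumours carried a guide RNA against Cul3 (sgCul3), 3 carried a guide against Keap1 (sgKeap1) and 4 carried a guide against GFP as the control (sgGFP). In the second table, 2 tumours were edited at the ETGE motif of NRF2 (sgNrf2), and 2 control libraries, A and B, are given by the labels as repeats of sgGFP tumours 2 and 4. KEAP1 and CUL3 act together in a ubiquitin ligase that recognises this motif and keeps the transcription factor NRF2 low, and the study used the guides and Cas9 to activate NRF2. The labels used here do not give mouse strain, sex or age, or how MYC and Cas9 were delivered. Nothing in the labels says that the tumours came from separate mice, so p-values measure the spread between these samples only.

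T cells read peptides held by MHC molecules through a receptor whose signal is passed on by the CD3 chains, with CD4 as the coreceptor for class II MHC and CD8 as the coreceptor for class I. NK cells and CD8 T cells kill target cells by releasing granules filled with granzymes, and B cells signal through an antigen receptor that contains CD79A. The normal liver of the mouse harbours many NK cells and T cells in its sinusoids, and lymphocytes are also found in the stroma of liver cancers.

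The labels give the cells as hepatocytes, and RNA of other cells was present in every library. The 10 hepatocyte genes counted here (albumin, apolipoproteins and others) summed to between 13939 and 96202 CPM (reads scaled to one common library total) among libraries of the first table, and to between 19430 and 34299 among those of the second. The 10 pan-leukocyte genes, with the leukocyte phosphatase Ptprc among them, summed to 106 to 186 CPM in sgCul3 tumours, 93.0 to 142 in sgKeap1 tumours and 58.1 to 283 in sgGFP tumours, and to 227 to 307 in sgNrf2 tumours and 52.5 to 257 in the controls. Reads on genes numbered between 6333025 and 12008223 a library (first table) and between 17819333 and 20848578 (second table). sgKeap1 tumour 2 stood apart, with 24.5% of its reads in 10 genes, while the other 9 libraries of the first table had 8.10% to 18.0% there, and with the highest hepatocyte sum of all libraries. Each targeted gene was lower in every tumour of its guide than in every sgGFP tumour. Cul3 had 163 to 676 normalised reads in sgCul3 and 935 to 1372 in sgGFP tumours, but its 596 to 895 in sgKeap1 tumours were below sgGFP too, so low Cul3 does not mark sgCul3 alone. Keap1 had 823 to 1150 in sgCul3, 287 to 462 in sgKeap1 and 582 to 721 in sgGFP tumours. Nqo1, a classic NRF2 target, had 1780 to 4564 in sgCul3, 4955 to 7498 in sgKeap1 and 17.5 to 110 in sgGFP tumours, and 4930 and 6663 in sgNrf2 tumours against 58.2 and 282 in the controls. Guide editing need not lower a transcript, so the level of a targeted gene is a limited check.

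The promoters of the 3 cytotoxic genes are shown because these genes share granule function and a motif. They come from RefSeq (GRCm38.p6) and run from 250 bases before to 50 bases after the start of each RefSeq entry, read 5′ to 3′ on the gene's strand, and 7 of the 9 markers had an entry. Capitals mark TGTGGT, the core bound by RUNX factors, or its reverse complement, and in Nkg7 also GGTGTGA, the core bound by T-box factors. The windows are chr7:43436888-43437187 (plus strand) for Nkg7, chr13:113100932-113101231 (minus strand) for Gzma and chr14:56262285-56262584 (minus strand) for Gzmb.
Nkg7: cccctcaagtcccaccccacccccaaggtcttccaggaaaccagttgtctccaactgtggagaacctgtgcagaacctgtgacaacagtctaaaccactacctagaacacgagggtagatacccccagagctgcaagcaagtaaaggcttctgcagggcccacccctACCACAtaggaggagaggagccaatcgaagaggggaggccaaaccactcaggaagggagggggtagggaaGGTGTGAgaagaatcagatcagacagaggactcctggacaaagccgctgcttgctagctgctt
Gzma: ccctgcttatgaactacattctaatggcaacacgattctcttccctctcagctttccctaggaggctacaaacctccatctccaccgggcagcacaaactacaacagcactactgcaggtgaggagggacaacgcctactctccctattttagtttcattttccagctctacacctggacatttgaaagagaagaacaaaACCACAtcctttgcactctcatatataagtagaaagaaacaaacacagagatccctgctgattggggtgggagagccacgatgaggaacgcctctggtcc
Gzmb: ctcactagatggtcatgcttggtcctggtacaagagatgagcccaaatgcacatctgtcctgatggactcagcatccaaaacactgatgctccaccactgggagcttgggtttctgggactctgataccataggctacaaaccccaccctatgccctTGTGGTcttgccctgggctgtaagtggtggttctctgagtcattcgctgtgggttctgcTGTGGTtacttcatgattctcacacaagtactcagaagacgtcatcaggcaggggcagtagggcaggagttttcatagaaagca
Both strands were searched in the 7 promoters and in all 32851 promoters of the same length. TGTGGT was in the 3 cytotoxic promoters and in no other of the 7, and 16.8% of all promoters hold it. It began 83 bases before the RefSeq start of Nkg7, 50 before that of Gzma, and 93 and 34 before that of Gzmb. GGTGTGA was in the Nkg7 promoter alone of the 7, 13 bases before the RefSeq start, and in 3.98% of all promoters. The gene spans given below come from the GENCODE annotation, which places other starts for Nkg7 and Gzmb. By those spans the whole Gzmb window lies before the gene, and the GGTGTGA of Nkg7 lies inside the gene. The antioxidant response element that NRF2 binds, written TGACNNNGC, was in 0 of 7 (12.4% of all promoters), and the MYC E-box CACGTG was in 0 of 7 (7.15% of all). The motifs do not overlap each other in these windows, and a match is a description of letters only.

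The markers lay near the bottom of the range of detection. Of the 90 values in the first table, 72 were under 10 reads and 9 were 0, and in the second 10 of 32 were under 10 reads and none was 0. Summed over the 9 genes, the libraries held 53, 90 and 47 reads in the 3 sgCul3 tumours, 36, 50 and 11 in the 3 sgKeap1 tumours, and 91, 85, 50 and 40 in the 4 sgGFP tumours. Summed over the 8 genes of the second table they held 314 (A) and 354 (B) in sgNrf2, and 148 (A) and 63 (B) in the controls. Cd4 alone reached a mean deposited value of at least 10 in the first table, while Cd3g, Cd4, Cd8a, Nkg7, Gzma and Gzmb did so in the second. A count of 0 allows up to 3 reads, that is 0.250 to 0.474 CPM in the libraries of the first table, for counting error only. In whole tumours fewer lymphocytes and less RNA per lymphocyte cannot be told apart.

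**Figure D1:**
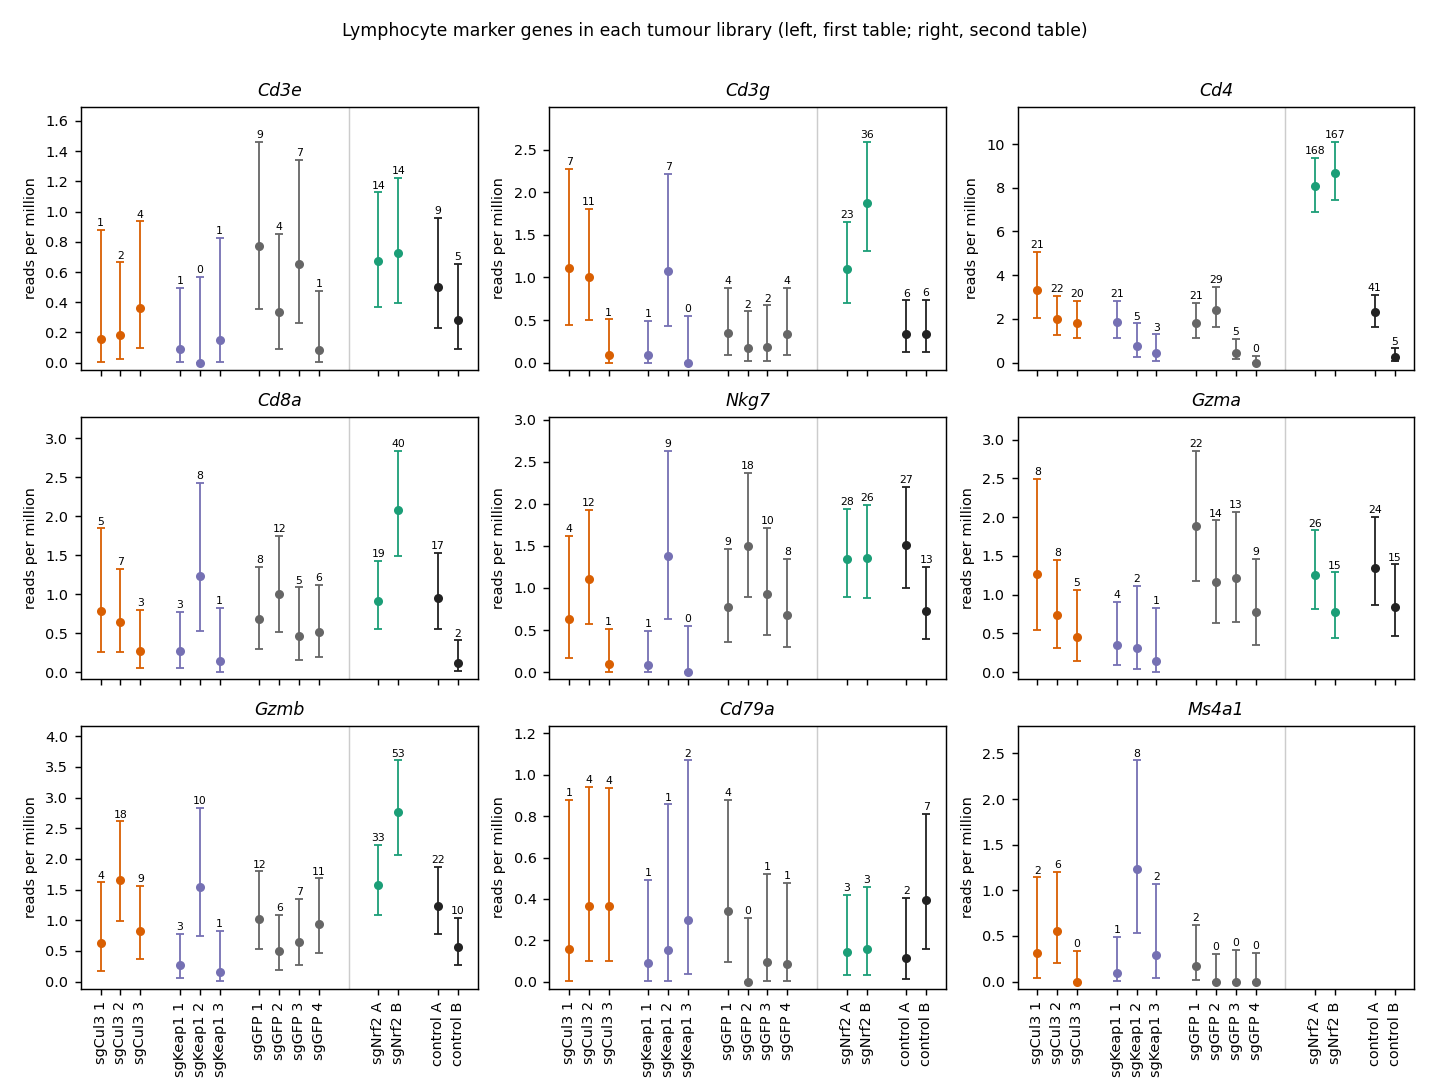
Each panel shows a marker gene in CPM (linear axis) in every library, with exact 95% intervals for counting error and the number of whole reads above each bar. Cd4 in sgNrf2 tumours A and B (8.06 and 8.69 CPM) lies above every other library, while in the first table the intervals of most libraries overlap.

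Compared per length, the cytotoxic genes were the most abundant in the first table. Over the 10 libraries of the first table Gzma averaged 0.824 ± 0.542 CPM per kilobase of exon, Nkg7 0.786 ± 0.584, Gzmb 0.569 ± 0.344 and Cd4 0.370 ± 0.257 (SD). Below these on the same scale came Cd8a with 0.165 ± 0.0939, Cd3g with 0.135 ± 0.136, Cd79a with 0.134 ± 0.0931, Cd3e with 0.0682 ± 0.0624 and Ms4a1 with 0.0429 ± 0.0623. No gap between neighbours in this order was larger than the SD of both genes. In each of its 3 groups Gzma, Nkg7 and Gzmb were the 3 highest by mean. In sgKeap1 the means of Gzma and Cd4 were close (0.268 and 0.254), and those of Nkg7 and Gzmb came mostly from tumour 2 (1.51 and 1.07). In sgKeap1 tumour 1 Cd4 (0.460) was above Gzma (0.351), Gzmb (0.185) and Nkg7 (0.0967). In the second table Cd4 headed the order in sgNrf2 tumours, with 2.08 ± 0.111 CPM per kilobase there and 0.319 ± 0.353 in the controls. Gzmb had 1.51 ± 0.579 in sgNrf2 and 0.624 ± 0.330 in the controls, Nkg7 had 1.47 ± 0.00758 and 1.23 ± 0.605, and Gzma had 1.01 ± 0.328 and 1.09 ± 0.353 (SD, n = 2 each). The other 4 lay between 0.103 and 0.455 in sgNrf2 and between 0.0961 and 0.173 in the controls. Ranked by mean deposited value among all genes of the first table, between 3.75% (Cd79a) and 26.7% (Cd4) of genes lay below a marker.

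Fold changes below are differences of log2(deposited value + 1), from limma with Benjamini-Hochberg adjustment over all genes tested, and a gene is called at an adjusted p under 0.05. On this scale the change of a low gene is understated. Markers whose mean was under 10 come from the same fit with no filter on low values.

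With Cul3 targeted, no marker was called. The fit with no filter called 0 of 9, against 1.75% of its 16821 genes, and Cd4 was not called in the filtered fit, which called 2.2% of 13045 genes. At an unadjusted p under 0.05 limma had 0 of 9 (15.8% of all genes with no filter), as did edgeR (16.2%). With no filter edgeR called 0 of 9 and DESeq2 called none (1.32% and 5.81% of all genes). DESeq2 gave no adjusted p for Cd3e, Cd79a and Ms4a1, so it did not judge these. The median log2 fold change of the 9 was 0.25, with 5 above 0, beside a median of -0.01 over all genes. Adjusted p ran from 0.383 to 0.899.

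With Keap1 targeted, again no marker was called, although Gzma came close. The count was 0 of 9 with no filter (6.41% of all genes), and Cd4 was not called in the filtered fit (7.82% of all genes). At an unadjusted p under 0.05, Ms4a1 was higher and Gzma and Cd3e were lower, 3 of 9 where 26.6% of all genes were past that level, and edgeR also had 3 of 9 (25.8% of all genes). After adjustment edgeR called 0 of 9 and DESeq2 called none (5.4% and 12.9% of all genes), with no adjusted p from DESeq2 for Cd3e and Cd79a. The median was -0.28, beside -0.02 over all genes, and adjusted p ran from 0.0587 to 0.970.

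Over both ligase guides, 6 tumours against 4 sgGFP tumours, 0 of 9 were called with no filter (6% of all genes) and Cd4 was not called in the filtered fit (7.56%). At an unadjusted p under 0.05 limma had Ms4a1 higher and Gzma lower, and edgeR had 3 (24.7% and 25.1% of all genes). After adjustment edgeR called 0 of 9 and DESeq2 called none (5.87% and 12.7%), again with no adjusted p from DESeq2 for Cd3e and Cd79a. An exact permutation test of log2(CPM + 1), over the 210 splits of 6 and 4 libraries, two-sided, had 0 of 9 markers at p under 0.05, against 19.3% of all 16821 genes, and 0 genes after adjustment. The smallest p that 210 splits allow is 0.0095, and the smallest adjusted p of any gene was 0.136 in this permutation test. The 0 calls after adjustment therefore tell nothing about the markers. The smallest p among the markers was that of Gzma (exact permutation p = 0.0571, adjusted 0.268). Set against each other, sgKeap1 and sgCul3 tumours differed in 0 of 9 markers with no filter (0.0594% of all genes) and in 0 of 1 in the filtered fit (0.0613%), with 0 of 9 at an unadjusted p under 0.05 by limma or edgeR (9.78% and 9.47%). edgeR called 0 of 9 and DESeq2 called none (0.0416% and 0.634%), with no adjusted p from DESeq2 for Cd3e, Cd3g, Cd79a and Ms4a1.

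**Figure D2:**
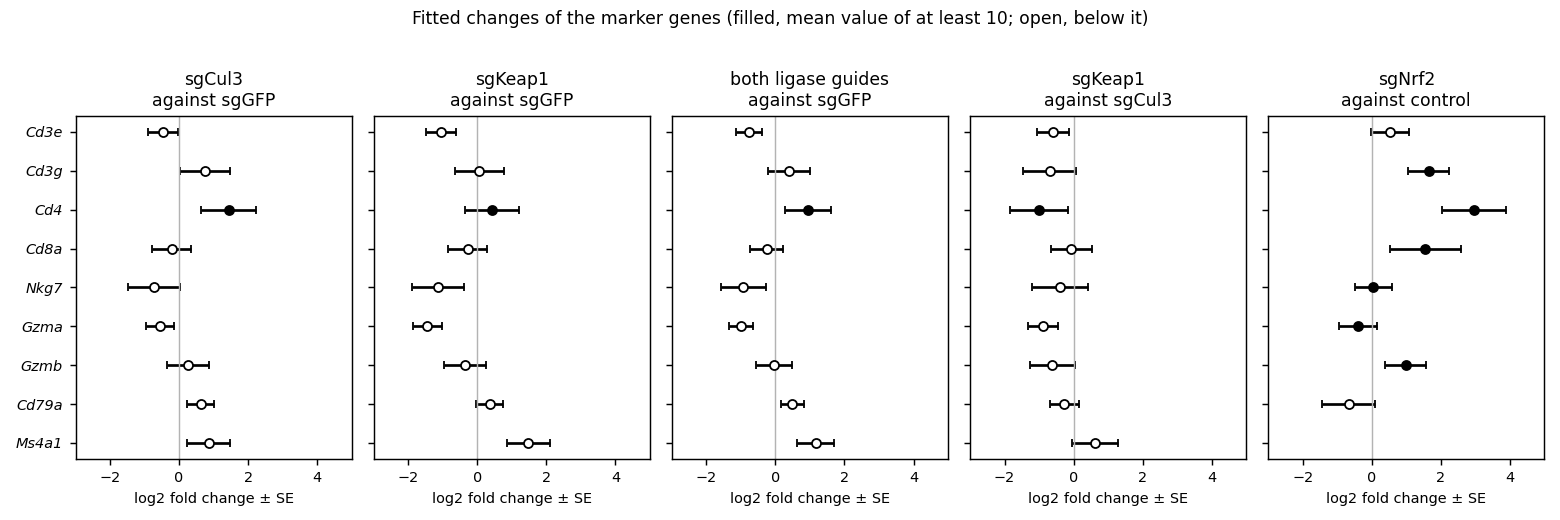
Points give the fitted log2 fold change of each marker in the 5 comparisons, with bars for its SE, filled where the mean deposited value was at least 10. Cd4 in sgNrf2 against control tumours (2.96 ± 0.92) is the farthest right, and Gzma in sgKeap1 against sgGFP tumours (-1.45 ± 0.41) the farthest left.

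The CD3 chains Cd3e and Cd3g carry the signal of the T cell receptor. Cd3e (ENSMUSG00000032093.6, GRCm38 chromosome 9, 44998740 to 45009627, minus strand) was read 1, 2 and 4 times in the 3 sgCul3 tumours, 1, 0 and 1 times in the 3 sgKeap1 tumours, and 9, 4, 7 and 1 times in the 4 sgGFP tumours. The sgKeap1 tumours were all at the low end and sgGFP tumours 1 and 3 were the highest, but the groups overlapped through sgGFP tumour 4. In pooled CPM, Cd3e (2 and 21 reads) in sgKeap1 was 0.179 times its level in sgGFP (exact 95% interval 0.0203 to 0.731, counting error only), and its log2 fold change was -1.05 ± 0.44 (limma adjusted p = 0.150). The antisense gene Gm48719 and the same-strand gene Gm48720 overlap Cd3e, so their reads may not be told apart from its own, and the labels do not say whether the counting used the strand.

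Cd3g (ENSMUSG00000002033.13, chromosome 9, 44969572 to 44980431, minus strand) had 7, 11 and 1 reads in sgCul3 tumours, 1, 7 and 0 in sgKeap1 tumours, and 4, 2, 2 and 4 in sgGFP tumours. It was spread more widely within sgCul3 and sgKeap1 than within sgGFP, with means of 6.73 ± 5.15 normalised reads in sgCul3, 5.0 ± 7.97 in sgKeap1 and 2.40 ± 0.936 in sgGFP (SD, n = 3, 3 and 4). Its log2 fold changes were 0.75 ± 0.71 in sgCul3 and 0.06 ± 0.71 in sgKeap1 (limma adjusted p = 0.672 and 0.970). Without sgKeap1 tumour 2 the sgKeap1 value of Cd3g was -0.87 (adjusted p = 0.461), and its sign also turned without sgGFP tumour 2 or 3.

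Cd4 (ENSMUSG00000023274.14, chromosome 6, 124864692 to 124888221, minus strand), the coreceptor of helper T cells, which in the mouse is also found on some dendritic cells, had the most reads of the T cell markers. It had 29.0, 19.5 and 15.6 normalised reads in the 3 sgCul3 tumours, 17.2, 10.1 and 4.33 in the 3 sgKeap1 tumours, and 14.2, 22.2, 4.43 and 0 in the 4 sgGFP tumours. All 3 sgCul3 tumours were above 3 of the 4 sgGFP tumours, and sgGFP tumour 4 had no read. The means were 21.4 ± 6.88 in sgCul3, 10.5 ± 6.43 in sgKeap1 and 10.2 ± 9.97 in sgGFP (SD), and the values under each guide overlapped those of sgGFP. The log2 fold change was 1.43 ± 0.78 in sgCul3 (limma adjusted p = 0.383) and 0.43 ± 0.78 in sgKeap1 (adjusted p = 0.744). Without sgGFP tumour 4 it was 0.74 in sgCul3 and took the other sign in sgKeap1 (-0.26).

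Cd8a (ENSMUSG00000053977.13, chromosome 6, 71373427 to 71379173, plus strand), the coreceptor of cytotoxic T cells, had 5, 7 and 3 reads in sgCul3 tumours, 3, 8 and 1 in sgKeap1 tumours, and 8, 12, 5 and 6 in sgGFP tumours. These overlap throughout, with log2 fold changes of -0.21 ± 0.57 and -0.28 ± 0.57 (limma adjusted p = 0.899 and 0.788). In normalised reads sgKeap1 tumour 2 was the highest of all 10 libraries (16.2) and sgKeap1 tumour 3 the lowest (1.44).

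Among the cytotoxic genes, Gzma in sgKeap1 tumours came nearest to a call. Gzma (ENSMUSG00000023132.7, chromosome 13, 113093825 to 113100981, minus strand) encodes granzyme A, a serine protease of the killing granule. It had 11.1, 7.09 and 3.91 normalised reads in the 3 sgCul3 tumours, 3.27, 4.05 and 1.44 in the 3 sgKeap1 tumours, and 14.8, 10.7, 11.5 and 8.05 in the 4 sgGFP tumours. Every sgKeap1 tumour was below every sgGFP tumour, the only marker of the 9 whose groups did not overlap in this comparison, where 11.7% of all genes were lower without overlap. In whole reads these are 8, 8 and 5 in sgCul3, 4, 2 and 1 in sgKeap1, and 22, 14, 13 and 9 in sgGFP. The means were 2.92 ± 1.34 in sgKeap1 and 11.3 ± 2.80 in sgGFP (SD, n = 3 and 4). On the log2 scale the difference was -1.45 ± 0.41, short of the threshold (limma adjusted p = 0.0587). Neither edgeR nor DESeq2 called Gzma (adjusted p = 0.0754 and 0.0798). Over all alternative fits its log2 fold change ran from -1.97 to -0.81 and its adjusted p from 0.0474 to 0.181, under 0.05 with the replicate block alone. In pooled CPM, Gzma in sgKeap1 was 0.226 times its level in sgGFP (exact 95% interval 0.0872 to 0.497, counting error only). In sgCul3 the log2 fold change was -0.56 ± 0.41 (adjusted p = 0.565), and sgKeap1 against sgCul3 gave -0.89 ± 0.44 (adjusted p = 0.539).

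Set against Ptprc, the leukocyte surface phosphatase CD45, the same order held for Gzma. Per 100 Ptprc reads there were 7.41, 2.87 and 5.15 Gzma reads in sgCul3 tumours, 2.94, 1.39 and 0.990 in sgKeap1 tumours, and 8.21, 4.91, 18.8 and 15.3 in sgGFP tumours. sgKeap1 tumours again lay below all sgGFP tumours. Genes of neutrophils, mast cells and red blood cells moved in the same comparison, where 439 of all 13045 genes tested fell and 581 rose. Of 14 neutrophil genes 10 fell and 0 rose, and their summed level was 43.7 to 334 CPM in sgKeap1 and 315 to 821 in sgGFP. Of 7 mast cell genes tested 4 fell, with sums of 9.81 to 11.4 in sgKeap1 and 15.3 to 118 in sgGFP, and Cpa3 and Mcpt4 were at 0 reads in sgKeap1 tumour 2. Of 11 erythroid genes 6 fell, with sums of 776 to 1684 in sgKeap1 and 1348 to 2079 in sgGFP. Their part in the Gzma values was not tested.

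Gzmb (ENSMUSG00000015437.4, chromosome 14, 56258838 to 56262260, minus strand) encodes granzyme B, the protease that sets off caspases in the target cell. It had 4, 18 and 9 reads in sgCul3 tumours, 3, 10 and 1 in sgKeap1 tumours, and 12, 6, 7 and 11 in sgGFP tumours. In sgCul3 and in sgKeap1 tumour 2 was the highest of its group, and the groups overlapped, with log2 fold changes of 0.25 ± 0.62 in sgCul3 and -0.36 ± 0.62 in sgKeap1 (limma adjusted p = 0.889 and 0.745). Nkg7 (ENSMUSG00000004612.9, chromosome 7, 43437073 to 43438249, plus strand), a granule membrane protein of NK cells and cytotoxic T cells, had 4, 12 and 1 reads in sgCul3, 1, 9 and 0 in sgKeap1, and 9, 18, 10 and 8 in sgGFP. Its log2 fold change was -0.73 ± 0.76 in sgCul3 and -1.13 ± 0.76 in sgKeap1 (adjusted p = 0.701 and 0.360). Without sgKeap1 tumour 2 the sgKeap1 value of Nkg7 was -2.16 (adjusted p = 0.0861). In normalised reads that tumour was the highest of its group for Cd3g, Cd8a, Nkg7, Gzma, Gzmb and Ms4a1. Cd3e had no read there, and Cd4 and Cd79a were higher in another tumour of the group. That tumour was also the highest for Zap70, a kinase of T cell receptor signalling named here after its values were seen. Zap70 had 48 reads there, beside 1 and 2 in sgKeap1 tumours 1 and 3.

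The B cell markers had the fewest reads in the first table. Cd79a (ENSMUSG00000003379.7, chromosome 7, 24897381 to 24902197, plus strand), a signalling chain of the B cell receptor, had 1, 4 and 4 reads in sgCul3 tumours, 1, 1 and 2 in sgKeap1 tumours, and 4, 0, 1 and 1 in sgGFP tumours. No library of the first table had more than 4 reads, and its log2 fold changes were 0.62 ± 0.39 and 0.36 ± 0.39 (limma adjusted p = 0.486 and 0.592). Ms4a1 (ENSMUSG00000024673.9, chromosome 19, 11249675 to 11266241, minus strand), which encodes the B cell surface protein CD20 and overlaps the antisense gene 4930526L06Rik, had 2, 6 and 0 reads in sgCul3, 1, 8 and 2 in sgKeap1, and 2, 0, 0 and 0 in sgGFP. In pooled CPM it was 10.3 times its sgGFP level in sgKeap1 (exact 95% interval 2.25 to 95.8) and 6.55 times in sgCul3 (1.31 to 63.3), for counting error only. Its means were 2.69 ± 2.66 normalised reads in sgCul3, 6.64 ± 8.36 in sgKeap1 and 0.337 ± 0.675 in sgGFP (SD, n = 3, 3 and 4). The log2 difference was 1.47 ± 0.62 in sgKeap1 (limma adjusted p = 0.159) and 0.71 without sgKeap1 tumour 2 (adjusted p = 0.508).

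In sgNrf2 tumours Cd4 was the marker farthest from the controls. It had 136 (A) and 146 (B) normalised reads in the sgNrf2 tumours, and 44.2 (A) and 6.33 (B) in the controls. Both sgNrf2 tumours lay well above both controls, and the controls differed from each other more than the sgNrf2 tumours did. The means were 141 ± 6.98 in sgNrf2 and 25.3 ± 26.8 in the controls (SD, n = 2 each). On the log2 scale the difference was 2.96 ± 0.92, which limma did not call (adjusted p = 0.116). In pooled CPM, Cd4 in sgNrf2 was 6.48 times the control level (exact 95% interval 4.75 to 9.03, counting error only). DESeq2 with no filter called Cd4 (log2 fold change 2.47, adjusted p = 0.0333), edgeR did not (adjusted p = 0.154), and limma called it once control A was left out (4.28, adjusted p = 0.0254). Without control B it was 1.65 (adjusted p = 0.0627), and without sgNrf2 tumour A or B it was not called either (adjusted p = 0.450 and 0.365).

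Of the 8 markers limma called 0, both in the filtered fit that tested 6 of them (4.41% of all genes called) and with no filter (3.98%). At an unadjusted p under 0.05 it had Cd4 and Cd3g, both higher, 2 of 8 where 29% of all genes were past that level, and edgeR likewise had 2 of 8 (28.8%) with 0 called (1.76%). DESeq2 with no filter called Cd4 alone, where it called 16.8% of all genes, and it gave no adjusted p for Cd79a. The median log2 fold change was 0.75, with 6 above 0, beside 0.02 over all genes. With equal totals in place of the deposited scaling the median of all genes tested moved to 0.30, beside 0.04, and no marker changed sign.

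Cd3g had 18.6 and 31.5 normalised reads in the sgNrf2 tumours, and 6.47 and 7.59 in the controls. Its log2 fold change was 1.66 ± 0.59 (limma adjusted p = 0.145), and the groups did not overlap. Cd3e had 14 reads in each sgNrf2 tumour, and 9 and 5 in the controls, a log2 fold change of 0.53 ± 0.55 (adjusted p = 0.554). Cd8a had 15.4 and 35.0 normalised reads in sgNrf2 tumours, and 18.3 and 2.53 in the controls (1.56 ± 1.02, adjusted p = 0.347), and these groups overlapped. Without Cd4 the T cell markers summed to 2.69 and 4.68 CPM in sgNrf2, and 1.79 and 0.730 in the controls.

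The cytotoxic genes did not share one direction in this comparison. Gzmb had 26.7 and 46.3 normalised reads in sgNrf2 tumours, and 23.7 and 12.7 in the controls, a log2 difference of 0.98 ± 0.60 (limma adjusted p = 0.318) with groups that did not overlap. Nkg7 had 22.7 in each sgNrf2 tumour, and 29.1 and 16.5 in the controls (0.05 ± 0.54, adjusted p = 0.961). Gzma had 21.1 and 13.1 in sgNrf2, and 25.9 and 19.0 in the controls (-0.39 ± 0.56, adjusted p = 0.658). Cd79a had 3 reads in each sgNrf2 tumour, and 2 and 7 in the controls (-0.66 ± 0.77, adjusted p = 0.594). In all, Cd4, Cd3g, Cd3e and Gzmb were higher without overlap, 4 of 8, where 31.9% of all genes were.

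**Figure D3:**
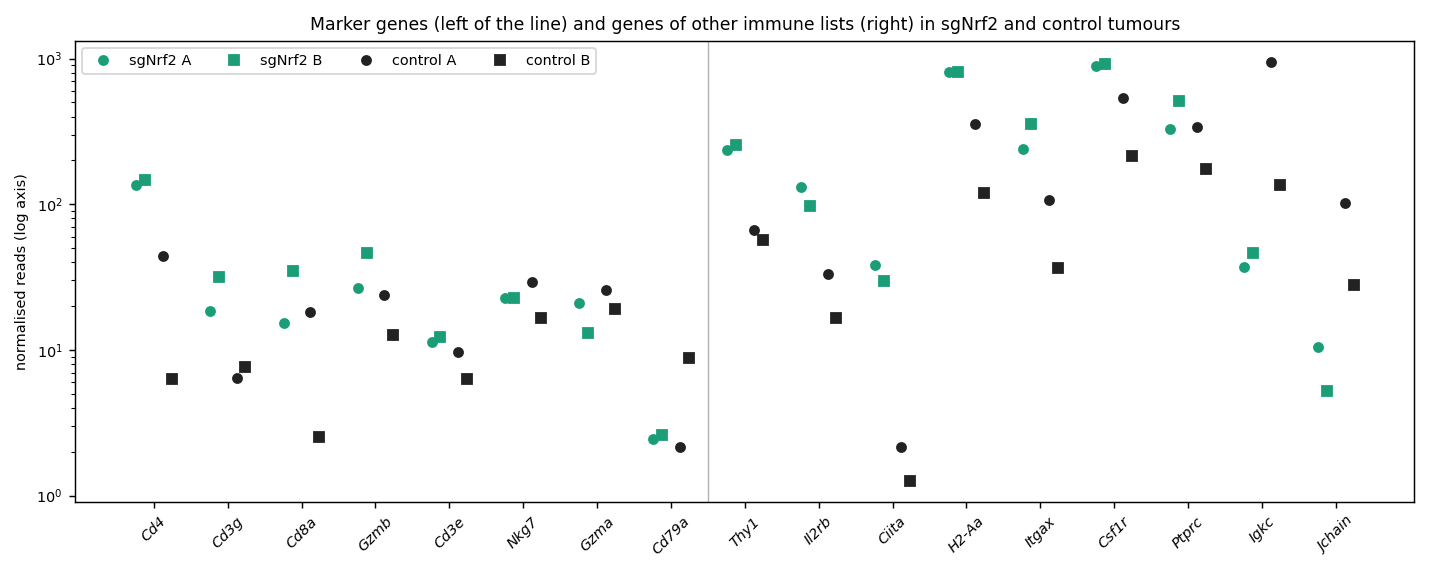
Normalised reads (log axis) of the 8 markers and of 9 genes from other immune lists in sgNrf2 tumours A and B (green) and controls A and B (black). Cd4 has 136 and 146 reads in sgNrf2 tumours and 44.2 and 6.33 in controls, while Cd8a, Nkg7, Gzma and Cd79a overlap between the groups.

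The high Cd4 values were also seen per leukocyte transcript. Per 100 Ptprc reads there were 41.2 and 28.6 Cd4 reads in the sgNrf2 tumours, and 13.1 and 3.60 in the controls. The same ratio for Cd3e was 3.43 and 2.40 in sgNrf2, and 2.87 and 3.60 in the controls. Genes of antigen-presenting cells were counted beside them. Of 14 macrophage genes tested 9 were above 0 on the log2 scale, 0 rose and 2 fell, and of 5 dendritic cell genes tested 4 were above 0 and 0 were called. At an unadjusted limma p under 0.05, 2 macrophage genes were higher and 4 lower, and 1 dendritic cell gene was higher and 0 lower. Of all 13989 genes tested, 2127 were higher and 2109 lower at that level. The next 3 genes, none of them called, were chosen after their values were seen, so they do not stand for their lists. H2-Aa, a class II MHC chain, had 806 and 812 normalised reads in sgNrf2, and 356 and 120 in the controls (log2 fold change 1.96 ± 0.54, limma adjusted p = 0.0956). Itgax, the integrin CD11c of dendritic cells and some macrophages, had 241 and 358 in sgNrf2, and 107 and 36.7 in the controls (2.21 ± 0.60, adjusted p = 0.0928). Csf1r, the growth factor receptor of macrophages, had 891 and 922 in sgNrf2, and 533 and 214 in the controls (1.42 ± 0.46, adjusted p = 0.125). Their part in the Cd4 values was not tested.

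Wider lists of the same cells were then counted. The T cell list holds 31 genes, the 4 T cell markers among them. In sgNrf2 tumours 26 were measured and 17 tested. Of these 1 rose and 0 fell, where 266 of all 13989 genes tested rose and 351 fell. The median log2 fold change was 1.05 beside 0.04 over all genes, with 16 of 17 above 0. Only genes that passed the filter on low values enter these figures. A low gene can pass it through high values in either group. Cd3g passed with means of 25.05 normalised reads in sgNrf2 and 7.03 in the controls. The median and the count above 0 therefore do not speak for the genes measured but not tested. The same limit holds for the lists below whose measured genes were not all tested. The gene that rose was Thy1, a surface glycoprotein of mouse T cells that fibroblasts also carry. Thy1 had 234 and 254 normalised reads in sgNrf2, and 66.8 and 57.0 in the controls (1.97 ± 0.32, limma adjusted p = 0.0472). The call of Thy1 was lost without control B (adjusted p = 0.0537), without sgNrf2 tumour A (0.382), without sgNrf2 tumour B (0.316) and with edgeR (0.0550). Of the same list, 28 were measured in the first table and 7 tested, and 0 of 7 were called in any comparison, with medians of 0.22 in sgCul3 and 0.08 in sgKeap1. By limma 0 of these were at an unadjusted p under 0.05, where 2241 of all 13045 genes were in sgCul3 and 3807 in sgKeap1. Lcp2, an adaptor of T cell receptor signalling also used by myeloid cells, had a log2 fold change of 0.22 ± 0.72 in sgCul3 and 0.51 ± 0.72 in sgKeap1 (adjusted p = 0.911 and 0.663).

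Eomes was called in the NK list of 25 genes, 15 of them measured and 3 tested in the first table. Eomes, a T-box transcription factor of NK cells and memory T cells that also acts in the early embryo, had 12.4, 7.98 and 18.8 normalised reads in the 3 sgCul3 tumours, 41.7, 48.6 and 56.3 in the 3 sgKeap1 tumours, and 0.675, 0.767, 0 and 0.895 in the 4 sgGFP tumours. All 6 guide tumours lay above all 4 sgGFP tumours, which held 3 Eomes reads in all. Eomes thus passed the filter on low values through the guide tumours alone. In CPM, Eomes in sgKeap1 was 71.3 times its level in sgGFP (exact 95% interval 23.8 to 351) and in sgCul3 22.9 times (7.32 to 116), for counting error only. Eomes rose in sgKeap1 (log2 fold change 4.30 ± 0.43, limma adjusted p = 0.000294) and in sgCul3 (2.49 ± 0.43, adjusted p = 0.0164), values that depend on the 1 added before the log. The sgCul3 call of Eomes was lost without sgCul3 tumour 1 (adjusted p = 0.0781), with equal totals (0.0637) and with these groups tested alone (0.0507). In the same tumours Nkg7, Gzma and Gzmb were not called, and neither were the other two genes tested. Il2rb, the interleukin receptor chain that NK cells depend on, had a log2 fold change of 0.21 ± 0.39 in sgCul3 and 0.72 ± 0.39 in sgKeap1 (adjusted p = 0.831 and 0.245). Ccl5, a chemokine of cytotoxic T cells and NK cells, had 0.12 ± 0.68 and 0.00 ± 0.68 (adjusted p = 0.953 and 0.999).

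In sgNrf2 tumours Eomes, named here after its values were seen, had 21.1 and 63.8 normalised reads, and 2.16 and 0 in the controls, and limma did not call it (adjusted p = 0.0666) except without control A (0.0406), while DESeq2 did (0.0114). Of the 17 NK list genes measured there, 10 were tested and 0 were called, with a median of 0.34 beside 0.04. At an unadjusted limma p under 0.05, 2 of the 10 were higher, as were 2127 of all 13989 genes tested. Il2rb had 131 and 97.9 normalised reads in sgNrf2, and 33.4 and 16.5 in the controls (2.22 ± 0.52, adjusted p = 0.0744), and it was called without control A (adjusted p = 0.0336), with equal totals (0.0479) and by DESeq2 (0.0145). Ccl5 had 46.2 and 39.3 in sgNrf2, and 59.3 and 25.3 in the controls (0.13 ± 0.57, adjusted p = 0.897).

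Of the 24 B and plasma cell genes, 18 were measured and 7 tested in the first table and none was called there. At an unadjusted limma p under 0.05, 1 was lower in sgKeap1 (1869 of all 13045 genes) and 0 in sgCul3 (1058 of all genes). Igkc, the kappa light chain constant region that plasma cells make in large amounts, had 20.7, 607 and 10.2 normalised reads in sgCul3 tumours, 20.4, 118 and 13.0 in sgKeap1 tumours, and 300, 453, 35.4 and 51.9 in sgGFP tumours. Tumour 2 was the highest of each group, and the log2 fold changes were -1.22 ± 1.34 in sgCul3 and -1.91 ± 1.34 in sgKeap1 (limma adjusted p = 0.691 and 0.358). For Igkc in sgCul3, edgeR and DESeq2 gave the other sign (0.019 and 0.015), and leaving out 1 library at a time moved the value between -2.96 and -0.13. Cd72, an inhibitory receptor of B cells, had log2 fold changes of 0.61 ± 0.57 and 1.08 ± 0.57 (adjusted p = 0.637 and 0.233). Igkc had 37.3 and 46.3 in the sgNrf2 tumours, and 952 and 135 in the controls, without overlap (-3.08 ± 0.95, adjusted p = 0.114). DESeq2 called Igkc there (adjusted p = 0.000170), and limma did so without control B (-4.49, adjusted p = 0.0491) but not without control A (-1.68, adjusted p = 0.0541). Ighm, the heavy chain of immunoglobulin M, had 60.0 and 80.4 in sgNrf2, and 48.5 and 27.8 in the controls (0.90 ± 0.49, adjusted p = 0.271). None of the 10 B and plasma cell genes tested in that table was called by limma. At an unadjusted limma p under 0.05, 2 were lower, as were 2109 of all 13989 genes tested.

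The genes that draw or engage lymphocytes were counted in the same way. Of 12 chemokine and receptor genes, 9 were measured and 7 tested in the first table. Cxcl10, an interferon-induced chemokine that attracts T cells and NK cells, had 716, 737 and 2996 normalised reads in sgCul3 tumours, 602, 961 and 674 in sgKeap1 tumours, and 432, 462, 104 and 165 in sgGFP tumours. All 6 guide tumours were above all sgGFP tumours, and Cxcl10 rose over both guides (log2 fold change 1.92 ± 0.50, limma adjusted p = 0.0430). It was not called in sgCul3 (2.26 ± 0.59, adjusted p = 0.0804) or sgKeap1 (1.59 ± 0.59, adjusted p = 0.111) alone, although DESeq2 called it in sgCul3 (adjusted p = 0.00243). The call over both guides was lost with edgeR (0.0620) and with equal totals (0.0590). It was also lost without sgGFP tumour 3 (0.133) or 4 (0.0940), sgCul3 tumour 1 (0.0529) or 2 (0.0504), or sgKeap1 tumour 1 (0.0516), 2 (0.0781) or 3 (0.0821). In sgNrf2 tumours 0 of 7 tested genes of this list were called. At an unadjusted limma p under 0.05, 1 was higher, as were 2127 of all 13989 genes tested.

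Of the 15 MHC class I and II genes, 14 were tested in the first table and none was called in any comparison there, with medians of 0.57 in sgCul3 and 0.73 in sgKeap1. At an unadjusted limma p under 0.05, 1 was higher in sgKeap1, as were 1938 of all 13045 genes tested. H2-K1, a class I chain, had 1628, 3205 and 805 normalised reads in sgCul3 tumours, 2167, 13291 and 1218 in sgKeap1 tumours, and 1585, 2252, 1649 and 2278 in sgGFP tumours, highest in sgKeap1 tumour 2. In sgNrf2 tumours 15 were tested, with a median of 1.45. Of these 2 rose and 0 fell, where 266 of all 13989 genes tested rose and 351 fell. Ciita, the master activator of class II MHC genes, passed the filter on low values through the sgNrf2 tumours alone. It had 38.1 and 29.7 normalised reads in sgNrf2, and 2.16 and 1.27 in the controls, 3 reads in all. In CPM this is 24 times the control level (exact 95% interval 7.94 to 119, counting error only), and limma called Ciita (adjusted p = 0.0473). Tapbp, which loads peptides on class I MHC, had 1219 and 1177 in sgNrf2, and 563 and 483 in the controls (log2 fold change 1.20 ± 0.20, adjusted p = 0.0472). The calls of Ciita and Tapbp were lost without control B (adjusted p = 0.0548 and 0.0525), without sgNrf2 tumour A (0.287 and 0.385) and without sgNrf2 tumour B (0.195 and 0.282). Tapbp was also lost with edgeR (0.0523).

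**Figure D4:**
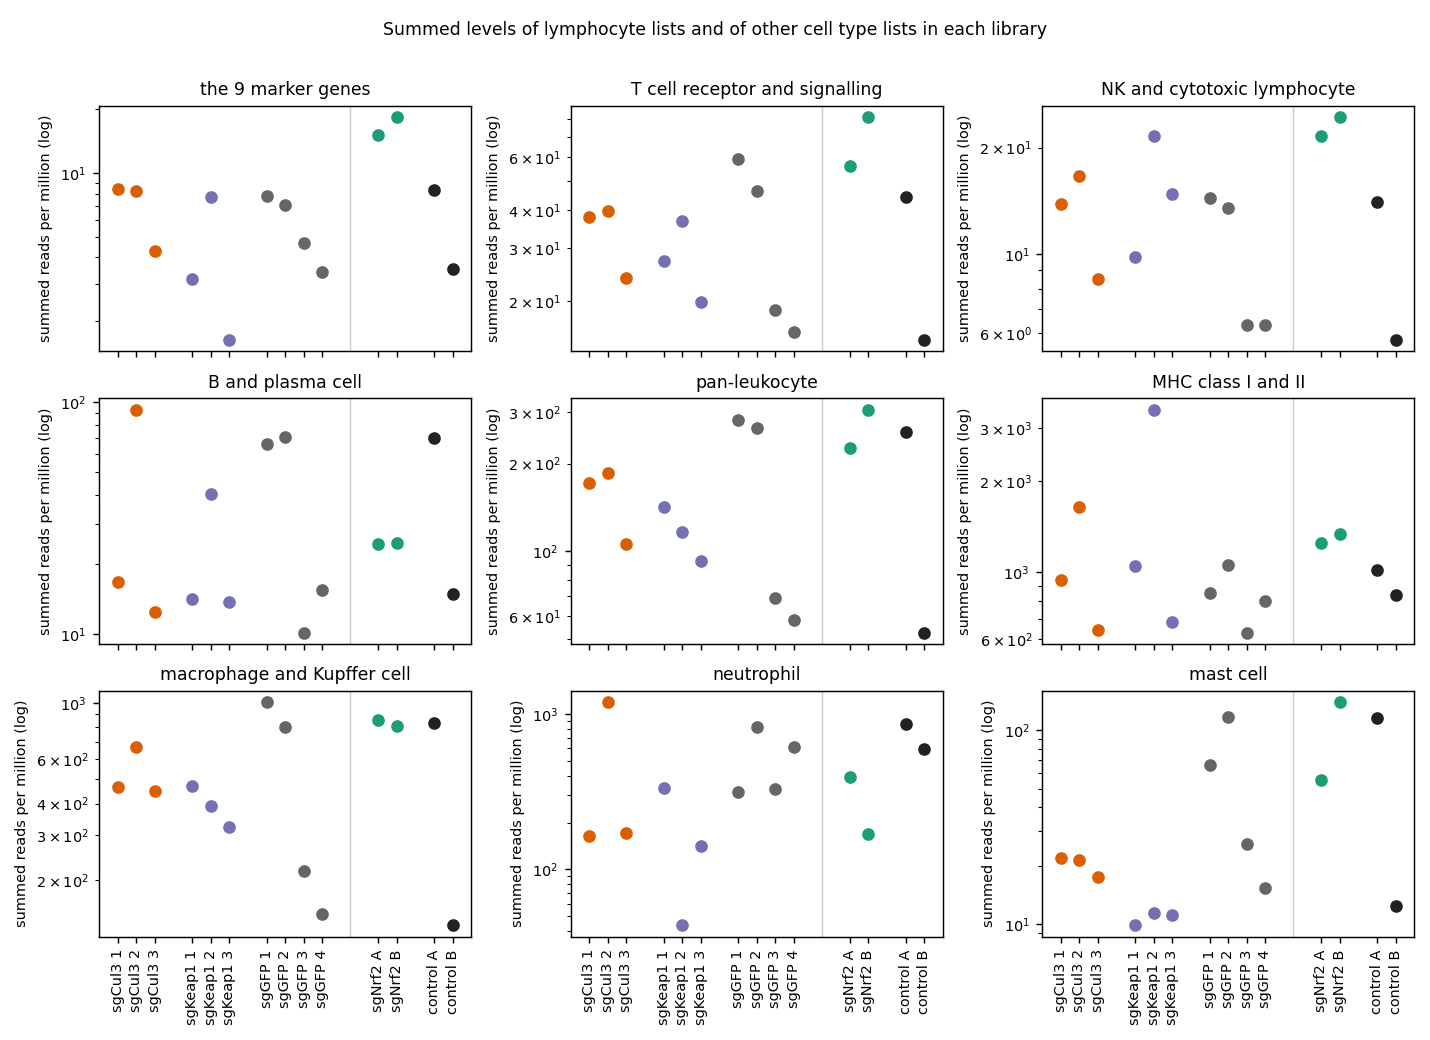
Summed CPM (log axis) of the markers, 3 wider lymphocyte lists and 5 other lists in each library. The T cell list is high in sgGFP tumours 1 and 2 and low in sgGFP tumours 3 and 4, and its values in sgNrf2 tumours (55.8 and 81.4) lie above those of controls A and B (44.2 and 14.8).

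In the T cell list the control tumours spanned the guide tumours. The list summed to 38.1, 39.6 and 23.8 CPM in the 3 sgCul3 tumours, 27.1, 36.7 and 19.8 in the 3 sgKeap1 tumours, and 59.3, 46.1, 18.7 and 15.7 in the 4 sgGFP tumours. sgGFP tumours 1 and 2 were above every guide tumour and sgGFP tumours 3 and 4 below every one. The same split of the sgGFP tumours was seen in the macrophage list, whose 15 genes summed to 1006, 805, 217 and 147 CPM in sgGFP tumours 1 to 4 and to 323 to 666 in the 6 guide tumours. The T cell markers alone also summed higher in sgGFP tumours 1 and 2 than in sgGFP tumours 3 and 4. Their guide tumours did not lie between these pairs. With Cd4 the sums were 3.597, 3.914, 1.769 and 0.941 CPM in sgGFP tumours 1 to 4 and 0.740 to 5.37 in guide tumours. Without Cd4 they were closer, 1.799, 1.499, 1.304 and 0.941 CPM in sgGFP tumours 1 to 4, and 0.296 to 2.31 in guide tumours. The T cell list also holds genes used by other cells, such as Lcp2, and which cells gave the split was not tested. Other lists moved in sgNrf2 tumours, where 351 of all 13989 genes tested fell and 266 rose. There 4 of 14 neutrophil genes and 8 of 11 erythroid genes fell. Of 14 macrophage genes 2 fell, Clec4f and Marco (named after their values were seen), both of resident liver macrophages. The sgNrf2 tumours together had 3 reads of each. The neutrophil sum was 393 and 169 CPM in sgNrf2 tumours, and 854 and 591 in the controls. Their part in the lymphocyte values was not tested.

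The repeat libraries gave a check on the reading of such low counts. For control A and sgGFP tumour 2, and for control B and sgGFP tumour 4, the exact 95% counting intervals of the level in CPM overlapped in 16 of 16 pairs of markers. Cd4 had 2.30 CPM in control A and 2.42 in sgGFP tumour 2, and 0.281 in control B and 0 in sgGFP tumour 4. Igkc had 49.4 in control A and 49.1 in sgGFP tumour 2. For Ptprc the intervals overlapped in neither pair, with 17.6 CPM in control A and 23.7 in sgGFP tumour 2, and 7.80 in control B and 5.05 in sgGFP tumour 4, so Ptprc, to which Gzma and Cd4 were set above, differed between repeats by more than its counting error. Cd4 was higher in tumour 2 than in tumour 4 in both tables.

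Among genes of the first table, the 3 whose pattern over the 10 libraries was closest to that of Cd4 were Ms4a7, Sh3bp4 and Asb2. Their root mean square differences from Cd4, in log2(value + 1) centred on each gene's mean, were 0.53, 0.54 and 0.54, beside a median of 1.23 over all genes compared. Ms4a7 had 101, 105 and 75.1 normalised reads in sgCul3 tumours, 94.0, 85.1 and 83.7 in sgKeap1 tumours, and 104, 133, 29.2 and 13.4 in sgGFP tumours. Like Cd4 it was lower in sgGFP tumours 3 and 4 than in sgGFP tumours 1 and 2. These genes were picked for this likeness from the same 10 libraries, so it is a description only.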

How the data were processed

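The values are those the authors deposited: HTSeq read counts per gene scaled by DESeq, per the labels, here treated as a normalised signal, on mm10 per the submitters' processing notes. Versions and the annotation release are not given in the labels used here. Every entry of the first table had 1 added, which was removed for the reads and normalised reads printed. Dividing by each library's smallest step gave whole reads for all genes (tolerance 0.1). Tables were scaled separately and tested apart, and 4 rows of the second that name no gene were left out.

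Differences were tested with limma 3.58.1 (trended variance) on log2(deposited value + 1) for genes whose mean reached 10, with Benjamini-Hochberg adjustment over all genes tested, the 3 groups of the first table sharing the spread. An exact permutation test over 210 splits (smallest p 0.0095) used log2(CPM + 1). Intervals are exact 95% intervals and cover counting error only, since reads carry no molecular identifiers. edgeR 4.0.16, DESeq2 1.42.0, other pseudocounts, filters and scalings, a replicate block and leaving out each library were tried, and the fitting was tested on simulated data. edgeR and DESeq2 with no filter, and removal of the added 1, were chosen after seeing the data. DESeq2 kept its default step that leaves some low genes without an adjusted p. Members, gene lists and tests were chosen with earlier results of these data known. Every member was named, then, from each wider lymphocyte list, up to 4 called genes per comparison or, with none called, the 2 of highest mean. Others are said to be chosen after their values were seen.

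Tumour numbers were checked for pairing through the correlation of deviations from group means. It was 0.164, 0.175 and 0.314 for sgCul3 with sgGFP, and 0.239, 0.518 and 0.0980 for sgKeap1 with sgCul3. For sgKeap1 with sgGFP it was 0.199, 0.0425 and -0.0941, and for sgNrf2 with control -0.000641 in A and in B. The labels state no pairing, and libraries of unlike number were not compared, so these values do not settle whether the numbers pair. Apart from the replicate block, no test took the numbers into account. The block changed no member's call in sgCul3 against sgGFP.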

Additional observations from a re-analysis of the deposited data

Results flagged for a closer look

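In sgGFP tumours Ms4a1 had 1.35 normalised reads (2 reads) in tumour 1 and 0 in the other 3, and was flagged for the gap between them. With the other 3 values at 0 any read in the last tumour meets this rule, and the exact counting intervals overlap, so the values do not set tumour 1 apart. Of 25 genes looked at in the 4 sgGFP tumours this was the 1 flagged. The rule is set to flag about 1 in 20 groups by chance, a rate that does not hold for counts this low.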

How the results depend on the processing

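The limits are the few reads per marker, 2 to 4 tumours a group, and the separate scaling of the tables. Members kept their side of the threshold in 699 recomputed values and came past it in 4: Cd4 in sgNrf2 against control (DESeq2 with and without the filter, and without control A) and Gzma in sgKeap1 against sgGFP with the replicate block (log2 fold change -1.57, adjusted p = 0.0474), where tumour numbers share only a number. In sgNrf2 against control the block also ended the calls of Thy1 (0.0601), Ciita (0.0626) and Tapbp (0.0633), and over both ligase guides that of Cxcl10 (0.0981). Signs of low members moved: Gzmb over both guides took the other sign in 10 alternatives, Cd8a in sgKeap1 against sgCul3 in 7 and Nkg7 in sgNrf2 against control in 5. In sgCul3 against sgGFP, Cd8a turned without sgCul3 tumour 3 and Gzmb without sgCul3 tumour 2. In sgKeap1 against sgGFP, Cd8a and Gzmb turned without sgKeap1 tumour 3, and Cd79a in sgNrf2 against control turned without control B.

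Counts of genes called over the whole table were 287 in sgCul3 against sgGFP, 1020 in sgKeap1 against sgGFP, 986 for both ligase guides against sgGFP, 8 in sgKeap1 against sgCul3 and 617 in sgNrf2 against control. In the same order DESeq2 called 926, 2143, 2052, 104 and 2639, and with no filter 971, 2160, 2120, 106 and 2702. A mean of at least 50 gave 162 in sgCul3 against sgGFP, and the groups tested alone gave 156 there and 0 in sgKeap1 against sgCul3. The replicate block gave 1778 in sgKeap1 against sgGFP. In sgNrf2 against control, equal totals gave 1381 (991 higher and 390 lower, beside 266 and 351) and edgeR with no filter 284. Leaving out each library gave 68 to 327 in sgCul3 against sgGFP, 319 to 1516 in sgKeap1 against sgGFP, 401 to 1550 for both ligase guides against sgGFP, 0 to 9 in sgKeap1 against sgCul3 and 3 to 3383 in sgNrf2 against control, where a lone library is assumed to vary like the others. In members by exact permutation, log2(CPM + 0.1) gave 1 marker at p under 0.05 (Gzma) and leaving out each library 0 to 1, beside 0. The cause of these moves was not tested.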
